A study of Mus musculus with 10 samples.

Results

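The genes of iron storage, iron transport and heme breakdown were examined in microglia, the resident immune cells of the brain, from the cortex of 9-month-old mice. The set was a list of 10 gene symbols: Fth1, Ftl1, Trf, Tfrc, Slc11a2, Slc11a1, Slc40a1, Cp, Hmox1 and Ireb2. These are 10 of the 24421 symbols in the count files, and all 10 were among the 18727 genes with enough reads to be tested. RNA seq was available for 3 libraries from wild type (WT) mice, 4 from APP/PS1 mice and 3 from APP/PS1 mice given N-AS. APP/PS1 mice, a model of Alzheimer's disease, over-express human APP with the Swedish mutation together with mutant presenilin-1. N-AS is N-acetyl sphingosine, an acetylated form of the membrane lipid sphingosine, and was given under the skin every day at 30 mg/kg for 8 weeks from an age of 7 months. Each library was a pool of 2 mice, so the spread within a group is the spread between pools. The scheme of the study gives vehicle injections to untreated APP/PS1 mice, whereas the labels name none for WT or APP/PS1 mice. The promoters of the transgenes were not given in the sources used here.

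Cells need iron for heme and for iron-sulfur clusters, but free iron damages them, so its entry, storage and release are tightly matched. Iron bound to transferrin (Trf) enters through the transferrin receptor (Tfrc) and leaves the endosome through the divalent metal transporter DMT1 (Slc11a2), while macrophages and microglia also carry the related phagosomal transporter NRAMP1 (Slc11a1). Ferritin, a shell of heavy (Fth1) and light (Ftl1) chains, stores iron. Ferroportin (Slc40a1) is the exporter, helped by the ferroxidase ceruloplasmin (Cp), and heme oxygenase (Hmox1) frees iron from heme. In the cortex, Trf is known mainly from oligodendrocytes and Cp from astrocytes and blood vessels, and elsewhere in the brain Cp is known from choroid plexus. Both are thus best known from other cells than microglia.

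Much of this control acts on the mRNA rather than on its amount. Iron regulatory protein 2, the product of Ireb2, binds hairpins called iron-responsive elements when iron is low. In a 5′ untranslated region (UTR) the bound hairpin blocks translation, and in the 3′ UTR of Tfrc it protects the mRNA from decay. Read counts can follow the second kind of control and not the first. The hairpins are shown because they mark members to which this can apply. A strict pattern can miss hairpins of another form. The sense strand of every annotated UTR (GENCODE M21 on GRCm38, the same assembly as mm10) was searched for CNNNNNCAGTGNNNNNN, that is, an unpaired C, a stem, the loop CAGTGN and the other side of the stem, with the stem bases pairing (G with T allowed). The loop is in capitals.
Fth1, 5′ UTR, chr19:9982732-9982760, + strand: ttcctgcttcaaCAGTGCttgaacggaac
Ftl1, 5′ UTR, chr7:45459779-45459807, - strand: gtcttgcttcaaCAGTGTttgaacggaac
Slc40a1, 5′ UTR, chr1:45925465-45925493, - strand: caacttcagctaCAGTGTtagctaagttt
Tfrc, 3′ UTR, chr16:32631219-32631247, + strand: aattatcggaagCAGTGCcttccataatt
Tfrc, 3′ UTR, chr16:32631598-32631626, + strand: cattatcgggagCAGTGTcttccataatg
Tfrc, 3′ UTR, chr16:32631663-32631691, + strand: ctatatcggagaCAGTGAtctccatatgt
Tfrc, 3′ UTR, chr16:32631710-32631738, + strand: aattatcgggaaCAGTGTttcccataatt

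The 4 matches in Tfrc do not overlap one another. A match was found in the 5′ UTR of 31 of 20899 genes (0.148%) and in the 3′ UTR of 129 of 21022 genes (0.614%). In the other 6 members this strict pattern was not found in either UTR. That says only that these letters are not there, and not that those mRNAs lack such a hairpin.

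The libraries held 8805804 to 19432075 counted reads, and expression is given as CPM, a gene's reads divided by the TMM-scaled size of its library, so that libraries of unequal depth can be compared. The preparation was a density gradient fraction and not a sort, and markers of other brain cells were present in every library. The 10 microglial markers summed to 689 to 1030 CPM in WT, against 1940 to 2520 CPM in APP/PS1, with 1320 to 1600 CPM in APP/PS1+N-AS, without overlap between the groups, and none was at 0 in all libraries. The 10 oligodendrocyte markers summed to 2470 to 7160 CPM in WT and 1980 to 4780 CPM in APP/PS1, above the microglial sum in most libraries. Libraries WT 3 and APP/PS1+N-AS 3 stood apart from the rest, with choroid plexus marker sums of 16.8 and 19.7 CPM against 415 to 1220 CPM in the other 8. The methods name only male mice, but Xist, a transcript of females, was counted 29 to 37 times in APP/PS1+N-AS 3 and the WT libraries but 5253 to 11188 times in the other 6. Y-linked genes summed to 177 to 197 CPM in WT and 176 CPM in APP/PS1+N-AS 3, to 31.0 to 57.0 CPM in replicates 1 and 2 of the other groups, and to 0.888 and 0.619 CPM in APP/PS1 3 and 4. Xist thus separated all WT from all APP/PS1 libraries, so sex and genotype cannot be told apart from those 2 groups alone, and in the N-AS group it set library 3 apart from 1 and 2. In bulk RNA, fewer cells of a type and less RNA per cell cannot be told apart, and this holds for every difference below.

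The members spanned a wide range of levels. Per kilobase of the principal transcript, Fth1 was the highest in WT at 244 CPM per kb, followed by Trf at 109, Ftl1 at 75.1, Slc11a2 at 64.9 and Cp at 44.1 CPM per kb. Tfrc at 13.4 and Ireb2 at 10.4 CPM per kb were lower, and Slc11a1 at 3.61, Slc40a1 at 3.20 and Hmox1 at 2.42 CPM per kb were the lowest. In APP/PS1 Fth1 stayed the highest, and the order below it changed. Ftl1 (162 CPM per kb) stood above Trf (93.8 CPM per kb), and Cp (52.1 CPM per kb) above Slc11a2 (43.5 CPM per kb). Slc11a1 (14.1 CPM per kb) stood above Ireb2 and Tfrc (11.1 and 10.1 CPM per kb). Slc40a1, at 3.87 CPM per kb, was the lowest member there.

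**Figure D1:**
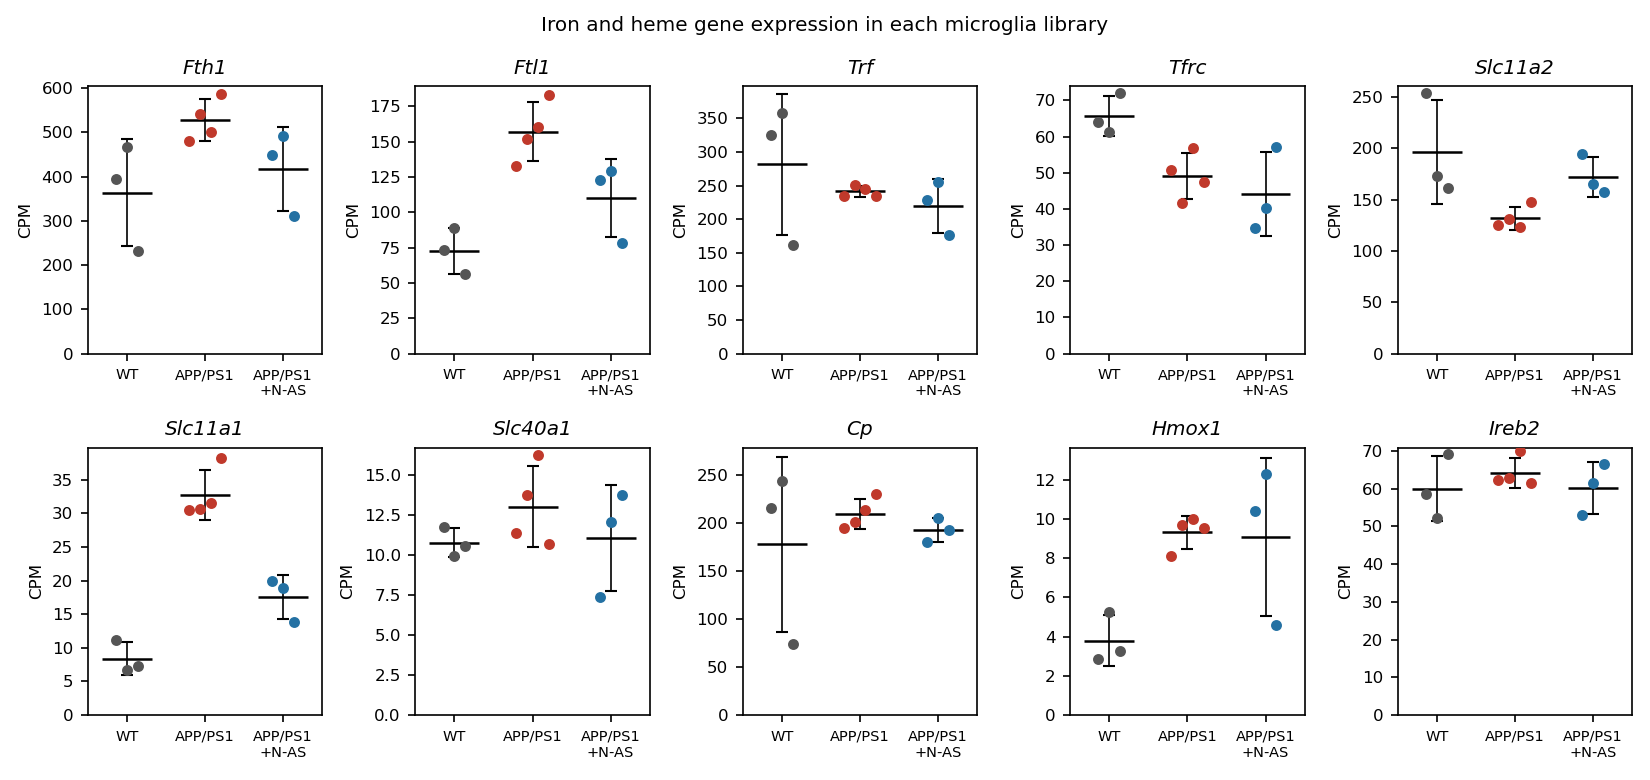
CPM of each member (y axis, starting at 0) in every library, grouped on the x axis as WT (grey, n = 3), APP/PS1 (red, n = 4) and APP/PS1+N-AS (blue, n = 3). Points are libraries, horizontal lines are group means and vertical bars are SD; Slc11a1 separates all 3 groups, with 6.69 to 11.2 CPM in WT, against 30.5 to 38.2 CPM in APP/PS1, with 13.9 to 19.9 CPM in APP/PS1+N-AS.

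The first comparison asked which iron and heme genes differ in microglia of the disease model. Ftl1 and Slc11a1 rose in APP/PS1 compared with WT, and no member fell, in the quasi-likelihood test of edgeR (p-values adjusted by Benjamini-Hochberg over all genes, threshold 0.05). These 2 of 10 members stand beside 3.47% of all genes tested that passed in either direction (2.67% higher and 0.796% lower). At an unadjusted p under 0.05 the test gave 5 members, 3 higher and 2 lower, beside 17.2% of all genes (8.3% higher and 8.9% lower). WT and APP/PS1 libraries did not overlap for 6 members (Fth1, Ftl1, Slc11a1 and Hmox1 higher in APP/PS1, Tfrc and Slc11a2 lower), beside 14.9% of all genes (8.15% higher and 6.73% lower). The median log2 fold change was 0.26 over the members and -0.07 over all genes. DESeq2 called 4 members, adding Hmox1 and Slc11a2. Leaving out WT 3 and APP/PS1+N-AS 3, an alternative chosen after seeing the data, edgeR called the same 4. With a term for libraries of more than 1000 Xist reads, also added after seeing the data, edgeR called 0 members and 2 genes in all (1 member and 894 genes at an unadjusted p under 0.05). That term could be estimated only within the N-AS group, from library 3 against 1 and 2. DESeq2 and limma voom were not run with it.

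The second comparison asked whether N-AS changed these genes in APP/PS1 mice. No member passed the edgeR test in APP/PS1+N-AS against APP/PS1, and neither did any of the 18727 genes (0%). At an unadjusted p under 0.05 edgeR gave 2 members, Ftl1 and Slc11a1, both lower with N-AS (3 with libraries of the same number as a block, adding Slc11a2), beside 8.83% of all genes (4.78% higher and 4.05% lower). DESeq2 called 1 member, Slc11a1, and 73 genes in all, and limma voom called 0. Without WT 3 and APP/PS1+N-AS 3 edgeR called 0 members. The groups did not overlap for 3 members (Ftl1 and Slc11a1 lower, Slc11a2 higher), beside 12.7% of all genes (6.26% higher and 6.46% lower). The median log2 fold change was -0.14 over the members and -0.01 over all genes.

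APP/PS1+N-AS was also set against WT. By edgeR 0 of 10 members passed, beside 0.187% of all genes (0.176% higher and 0.0107% lower). An unadjusted p under 0.05 was reached by 4 members, Ftl1, Slc11a1 and Hmox1 higher and Tfrc lower, beside 6.73% of all genes (3.64% higher and 3.09% lower). DESeq2 called 1 member, Slc11a1, and limma voom called 0. Leaving out the same pair of libraries again gave 0 members by edgeR. Groups did not overlap for Slc11a1 (higher) and Tfrc (lower), beside 8.81% of all genes (4.9% higher and 3.91% lower). The 3 comparisons share libraries with one another, so their values are set side by side for each member and are not independent.

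**Figure D2:**
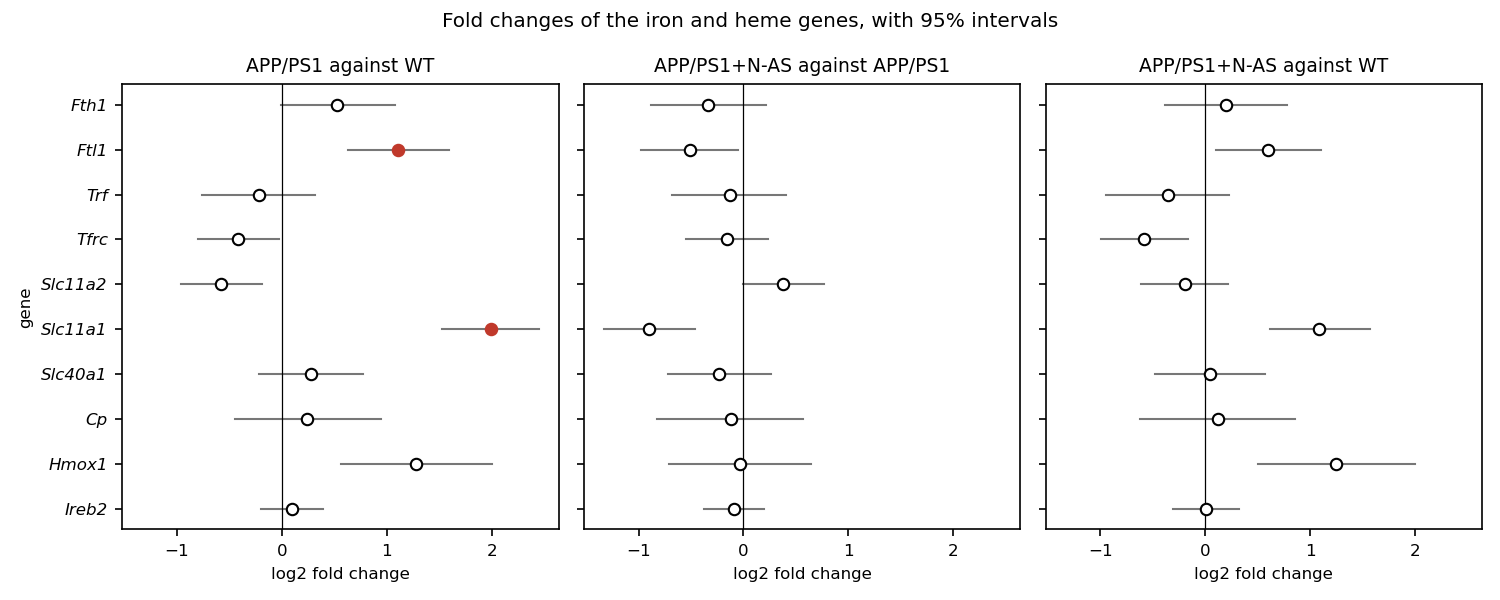
Log2 fold change from edgeR (x axis) of each member (y axis) in the 3 comparisons, with bars for 95% intervals. Filled red points have an adjusted p under 0.05, which only Ftl1 (1.11) and Slc11a1 (1.99) in APP/PS1 against WT reached.

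The ferritin light chain, Ftl1 (chromosome 7, 45457944 to 45459884, minus strand), stood at 73.1, 88.7 and 56.2 CPM in the WT libraries. It was at 133, 152, 160 and 183 CPM in APP/PS1 and at 123, 129 and 78.0 CPM in APP/PS1+N-AS. Every APP/PS1 library was above every WT library and every N-AS library, and APP/PS1+N-AS 3 fell within the WT range. Ftl1 rose 2.16-fold in APP/PS1 against WT (log2 fold change 1.11, SE 0.22, edgeR adjusted p = 0.0194). The call was lost in edgeR without WT 1 (adjusted p = 0.0694), without APP/PS1 3 (0.0596) and without APP/PS1 4 (0.0643), in a range of 0.0262 to 0.0694 over the 7 fits that left out a library. With the Xist term the log2 fold change was 0.42 (SE 0.33, edgeR adjusted p = 0.999). With N-AS, Ftl1 was at 0.70 times its APP/PS1 level, which did not pass (log2 fold change -0.51, SE 0.21, edgeR adjusted p = 0.531), and against WT the log2 fold change was 0.60 (SE 0.23, edgeR adjusted p = 0.650). The Ftl1 transcript has 7 other annotated genes, 4 of them pseudogenes, that match it at 95% identity or more over at least 200 bases, and none of them is listed in the count files. How reads shared with these copies were counted is not given in the sources used here, so the Ftl1 level is uncertain.

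The ferritin heavy chain, Fth1 (chromosome 19, 9980598 to 9985098, plus strand), carries the ferroxidase site of the shell. Its WT libraries read 394, 467 and 231 CPM, its APP/PS1 libraries 480, 541, 501 and 587 CPM, and its APP/PS1+N-AS libraries 449, 492 and 311 CPM. APP/PS1 was above WT in every library, but the gap between the nearest libraries, WT 2 and APP/PS1 1, was small, and WT 3 and APP/PS1+N-AS 3 were the lowest of their groups. The log2 fold changes did not pass the edgeR test: 0.53 (SE 0.25, adjusted p = 0.305) in APP/PS1 against WT, -0.34 (SE 0.25, adjusted p = 0.724) with N-AS against APP/PS1 and 0.20 (SE 0.26, adjusted p = 0.948) against WT. No close copy of Fth1 was found in the annotation under the same limits.

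Both chains build one shell, so their balance was computed within each library, where depth cancels. Fth1 over Ftl1, as a ratio of CPM, was 5.40, 5.27 and 4.11 in WT, 3.61, 3.57, 3.14 and 3.20 in APP/PS1, and 3.66, 3.82 and 3.98 in APP/PS1+N-AS. The respective means were 4.93 ± 0.708 (SD, n = 3), 3.38 ± 0.242 (SD, n = 4) and 3.82 ± 0.160 (SD, n = 3). The ratio was lowest in APP/PS1, intermediate with N-AS and highest in WT. No group overlapped another, including WT 3 and APP/PS1+N-AS 3, but the nearest APP/PS1 and N-AS libraries read 3.61 and 3.66. Per kilobase of transcript the mean ratios were 3.19, 2.19 and 2.47. Depth cancels in this ratio, but the mix of cell types does not, and the microglial marker sum also differed between the groups. The uncertainty of the Ftl1 level carries over to it. The ratio was chosen after the values were seen and was not tested.

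**Figure D3:**
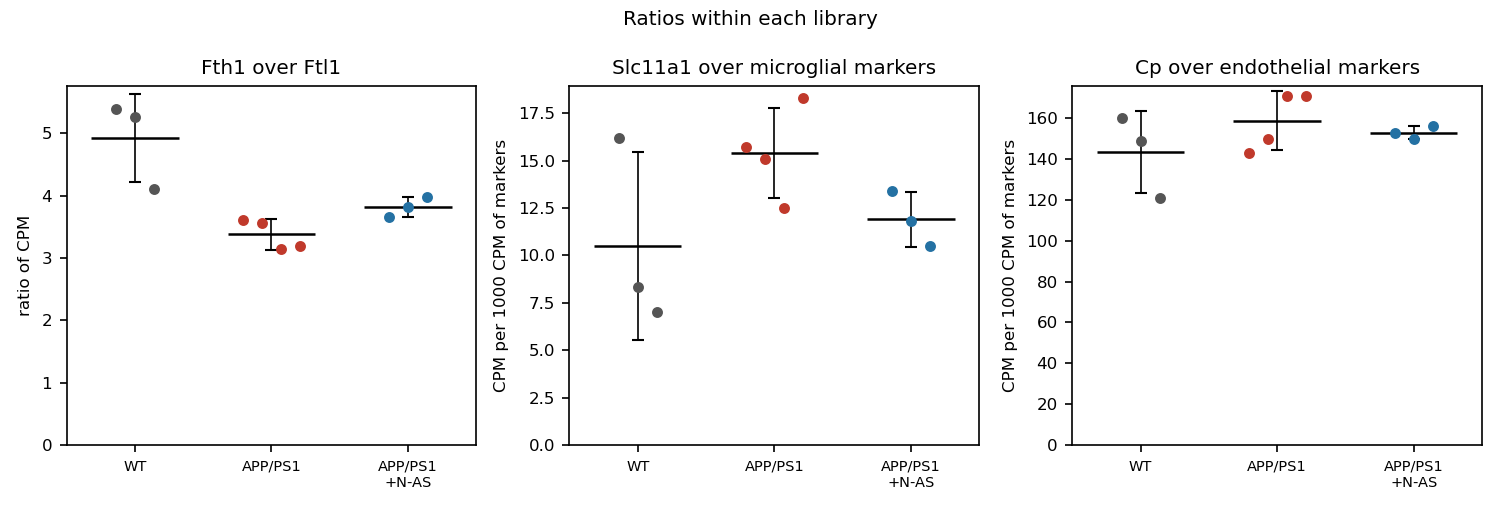
Ratios within each library (y axes, starting at 0) for WT (grey), APP/PS1 (red) and APP/PS1+N-AS (blue): Fth1 over Ftl1, Slc11a1 per 1000 CPM of microglial markers and Cp per 1000 CPM of endothelial markers, with group means (lines) and SD (bars). The Fth1 over Ftl1 ratios of the 3 groups do not overlap, while for Slc11a1 per microglial marker WT 1 (16.2) lies within the APP/PS1 range and APP/PS1+N-AS 1 (13.4) lies above APP/PS1 3 (12.5).

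Slc11a1 (chromosome 1, 74375195 to 74386062, plus strand) moves metal ions out of the phagosome and is a gene of macrophages, microglia and neutrophils. It read 11.2, 6.69 and 7.23 CPM in WT, 30.5, 30.7, 31.6 and 38.2 CPM in APP/PS1, and 19.9, 18.9 and 13.9 CPM in APP/PS1+N-AS. The groups did not overlap, and the N-AS libraries lay between the other groups. Slc11a1 rose 3.97-fold in APP/PS1 against WT (log2 fold change 1.99, SE 0.21, edgeR adjusted p = 0.000773), the largest change among the members, and it passed under 16 of 17 alternatives with log2 fold changes of 1.77 to 2.23. The exception was the fit with the Xist term, with a log2 fold change of 1.51 (SE 0.34, edgeR adjusted p = 0.564). With N-AS it was at 0.537 times the APP/PS1 level (log2 fold change -0.90, SE 0.20), which did not pass by edgeR (adjusted p = 0.478) and did by DESeq2 (adjusted p = 0.0110), in a range of 0.0110 to 0.996 over all alternatives. Against WT the log2 fold change in APP/PS1+N-AS was 1.09 (SE 0.22, edgeR adjusted p = 0.106). Without APP/PS1+N-AS 3 that comparison passed (edgeR adjusted p = 0.0277, in a range of 0.000713 to 1 over all alternatives).

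The microglial marker sum moved with Slc11a1: 7 of its 10 genes rose in APP/PS1 against WT (edgeR, median log2 fold change 1.35). Per 1000 CPM of those markers, Slc11a1 was 16.2, 8.32 and 7.04 in WT, 15.7, 15.1, 12.5 and 18.3 in APP/PS1, and 13.4, 11.8 and 10.5 in APP/PS1+N-AS. On this scale all groups overlapped: WT 1 lay within the APP/PS1 range and APP/PS1+N-AS 1 above APP/PS1 3, while WT 2 and WT 3 lay below all other libraries. Ftl1 per 1000 CPM of the same markers was 54.7 to 110 in WT, against 63.2 to 87.9 in APP/PS1, with 59.0 to 82.9 in APP/PS1+N-AS, also overlapping. For Fth1 the means on that scale (± SD) were 460 ± 203 in the 3 WT libraries, 248 ± 35.9 in the 4 APP/PS1 libraries and 282 ± 40.6 in the 3 with N-AS. These members read higher in APP/PS1 in CPM, while per microglial marker read the groups overlapped. For Fth1, WT 1 and WT 2 (572 and 582) lay above every APP/PS1 library (199 to 281), and WT 3 (225) lay within that range. Because 7 of the 10 marker genes rose themselves, any rise shrinks on this scale. The overlap is therefore not a test of whether a member rose within microglia. The part of the share of microglia in these results was not tested. Neutrophil and monocyte markers, whose cells also express Slc11a1, summed to 7.81 to 21.2 CPM in WT and 13.5 to 99.1 CPM in APP/PS1, where APP/PS1 3 was the highest.

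The other uptake genes did not pass the test in any comparison. Slc11a2 (chromosome 15, 100387898 to 100425072, minus strand) read 254, 173 and 161 CPM in WT, 125, 131, 123 and 148 CPM in APP/PS1, and 194, 165 and 157 CPM in APP/PS1+N-AS. APP/PS1 was below both other groups in every library, and WT 1 was far above the rest. The log2 fold changes were -0.58 (SE 0.18, edgeR adjusted p = 0.111) in APP/PS1 against WT and 0.38 (SE 0.18, edgeR adjusted p = 0.570) with N-AS, so neither passed. DESeq2, and edgeR without WT 3, called the first (edgeR adjusted p = 0.0460 without WT 3, in a range of 0.0236 to 0.995 over all alternatives). Over 402 exonic bases Slc11a2 lies opposite Gm5475, and reads there cannot be assigned unless strand was used in counting.

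Tfrc (chromosome 16, 32608920 to 32632794, plus strand), the transferrin receptor with the 4 hairpins shown above, read 63.9, 61.2 and 72.0 CPM in WT. It read 50.7, 41.5, 56.8 and 47.5 CPM in APP/PS1 and 34.8, 40.3 and 57.2 CPM in APP/PS1+N-AS. WT was above all 7 other libraries, and the APP/PS1 and N-AS libraries overlapped. The edgeR log2 fold changes of -0.42 (SE 0.17, adjusted p = 0.245) in APP/PS1 and -0.58 (SE 0.19, adjusted p = 0.508) in APP/PS1+N-AS against WT did not pass. With N-AS against APP/PS1 the log2 fold change was -0.16 (SE 0.18, edgeR adjusted p = 0.840). In APP/PS1, Tfrc thus read below WT and both ferritin chains above WT in every library, and of these 3 genes Ftl1 alone passed. With the Xist term the edgeR log2 fold changes were 0.19 for Tfrc and -0.07 for Fth1. Per 1000 CPM of neuron markers Tfrc was 15.1 to 45.0 in WT and 21.0 to 30.4 in APP/PS1. These groups overlapped, as they did for Tfrc per endothelial marker and for both ferritin chains per microglial marker.

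Trf (chromosome 9, 103204001 to 103230444, minus strand), the carrier protein, read 325, 358 and 161 CPM in WT, 235, 251, 245 and 234 CPM in APP/PS1, and 229, 255 and 176 CPM in APP/PS1+N-AS. WT 3 and APP/PS1+N-AS 3, the libraries with the fewest choroid plexus marker reads, were the lowest of all 10. Every group overlapped every other. The log2 fold changes were -0.22 (SE 0.25, edgeR adjusted p = 0.707), -0.13 (SE 0.25, edgeR adjusted p = 0.910) and -0.35 (SE 0.26, edgeR adjusted p = 0.862) in the 3 comparisons in the order given above. Per 1000 CPM of oligodendrocyte markers Trf was 46.3 to 65.0 in WT, against 49.2 to 124 in APP/PS1, with 58.5 to 63.4 in APP/PS1+N-AS. The parts of oligodendrocytes and choroid plexus in the Trf values were not tested. Trf overlaps Gm20425 over 2108 exonic bases of the same strand, and that gene is not listed in the count files.

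Of the export genes, Slc40a1 (chromosome 1, 45908068 to 45926523, minus strand) was low throughout. It read 11.8, 9.97 and 10.6 CPM in WT, 11.4, 13.8, 16.3 and 10.7 CPM in APP/PS1, and 7.38, 12.1 and 13.8 CPM in APP/PS1+N-AS. All groups overlapped and APP/PS1+N-AS 1 was the lowest. The 95% interval of its log2 fold change ran from -0.22 to 0.77 in APP/PS1 against WT and from -0.72 to 0.26 with N-AS against APP/PS1, so changes of that size could not be told from none.

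Cp (chromosome 3, 19957054 to 20009145, plus strand) read 216, 244 and 73.8 CPM in WT, 195, 201, 214 and 230 CPM in APP/PS1, and 180, 205 and 193 CPM in APP/PS1+N-AS. A single library, WT 3, stood far below the other 9, and the groups overlapped. The log2 fold change of 0.24 (SE 0.32, edgeR adjusted p = 0.757) in APP/PS1 against WT turned to -0.12 without WT 3. WT 3 also had the lowest endothelial marker sum, 611 CPM against 1180 to 1630 CPM elsewhere. Per 1000 CPM of those markers Cp overlapped between all groups, at 121 to 160 in WT, against 143 to 171 in APP/PS1, with 150 to 156 in APP/PS1+N-AS. Per 1000 CPM of astrocyte markers Cp was 95.9, 104 and 27.6 in WT. On that scale it was 54.3 to 79.2 in APP/PS1 and 57.8 to 86.9 in APP/PS1+N-AS. Choroid plexus marker reads were about as few in APP/PS1+N-AS 3, with 193 CPM of Cp, as in WT 3, with 73.8 CPM. The parts of vessel cells, astrocytes and choroid plexus in the Cp values were not tested. Cp shares 108 exonic bases with Hps3 on the other strand.

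Hmox1 (chromosome 8, 75093621 to 75100589, plus strand), the enzyme that opens heme and is induced by heme and oxidative stress, was the lowest member in WT and was counted with 24 to 232 reads a library. It read 2.85, 5.26 and 3.28 CPM in WT, 8.11, 9.67, 10 and 9.52 CPM in APP/PS1, and 10.4, 12.3 and 4.58 CPM in APP/PS1+N-AS. All 4 APP/PS1 libraries were above WT, and the N-AS libraries split, with APP/PS1+N-AS 3 within the WT range and the other 2 above every other library. Hmox1 was at 2.43 times the WT level in APP/PS1, narrowly outside the threshold (log2 fold change 1.28, SE 0.33, edgeR adjusted p = 0.0608), and DESeq2 called it (adjusted p = 0.00683, in a range of 0.00683 to 0.999 over all alternatives). It also passed in edgeR fitted to 2 groups only (adjusted p = 0.0374) and, with an adjusted p that rounds to 0.05, with unscaled library sizes, whereas with the Xist term its log2 fold change was -0.03 (SE 0.42, edgeR adjusted p = 0.999). In APP/PS1+N-AS against WT the log2 fold change was 1.25 (SE 0.34, edgeR adjusted p = 0.331), and without APP/PS1+N-AS 3 it passed (edgeR adjusted p = 0.0276, the lowest of a range up to 1 over all alternatives). With N-AS against APP/PS1 it was -0.03 (SE 0.31, edgeR adjusted p = 0.987), with a 95% interval of -0.71 to 0.64. Per 1000 CPM of border macrophage markers Hmox1 was 77.7 to 159 in WT and 239 to 424 in APP/PS1, without overlap. The N-AS libraries, at 117 to 560, overlapped both. Per microglial marker WT and APP/PS1 overlapped (3.19 to 6.55 in WT and 3.98 to 4.75 in APP/PS1).

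Ireb2 (chromosome 9, 54863789 to 54912530, plus strand), the hairpin-binding regulator, was the most even member, with a range of 0.42 on the log2 CPM scale over the 10 libraries. It read 58.5, 52.3 and 69.3 CPM in WT, 62.4, 62.8, 70.0 and 61.6 CPM in APP/PS1, and 52.9, 61.5 and 66.5 CPM in APP/PS1+N-AS. The groups overlapped throughout. The 95% intervals of its log2 fold changes ran from -0.20 to 0.39, from -0.38 to 0.20 and from -0.31 to 0.32 in the 3 comparisons, which bounds any change at these depths.

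The labels number the libraries from 1 to 10, with replicates 1 and 2 of each group as numbers 1 to 6 and the rest, including WT 3 and APP/PS1+N-AS 3, as numbers 7 to 10. What the numbers stand for is not stated. Within each range the difference of mean log2(CPM + 0.5) between APP/PS1 and WT was 0.82 and 1.60 for Ftl1, 1.76 and 2.19 for Slc11a1, and 1.09 and 1.44 for Hmox1. These 3 members, and Fth1 (0.25 and 1.23), Slc40a1 (0.20 and 0.30), Tfrc (-0.44 and -0.47) and Slc11a2 (-0.72 and -0.26), kept their direction in both ranges. Cp (-0.21 and 1.58), Trf (-0.49 and 0.57) and Ireb2 (0.18 and -0.08) did not. With N-AS against APP/PS1, Slc11a1 differed by -0.64 and -1.29 and Ftl1 by -0.18 and -1.13, and they kept their direction, as did Fth1, Trf, Slc11a2 and Cp. Hmox1 turned from 0.34 to -1.02, Tfrc from -0.29 to 0.14, Slc40a1 from -0.39 to 0.06 and Ireb2 from -0.13 to 0.02. Numbers 7 to 10 hold 1 WT and 1 N-AS library, so those values have no replicate.

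The wider pathway was read from 50 other iron and heme genes, of which 46 were tested. In APP/PS1 against WT 0 rose and 2 fell by edgeR, beside 2.67% and 0.796% of all genes, and the median log2 fold change was -0.02. The 2 that fell were Cpox and Slc48a1. Cpox, an enzyme of heme synthesis in mitochondria, read 45.5, 33.5 and 35.3 CPM in WT, 25.8, 24.7, 27.9 and 25.2 CPM in APP/PS1 and 30.2, 30.0 and 29.2 CPM in APP/PS1+N-AS. Slc48a1, which carries heme out of the lysosome, read 39.2, 45.3 and 35.0 CPM in WT, 29.9, 27.7, 23.7 and 26.9 CPM in APP/PS1 and 26.4, 31.5 and 30.0 CPM in APP/PS1+N-AS. In both genes WT stood above all 7 other libraries. The log2 fold changes in APP/PS1 against WT were -0.55 (SE 0.12, edgeR adjusted p = 0.0379) for Cpox and -0.56 (SE 0.13, edgeR adjusted p = 0.0439) for Slc48a1. Neither call held with unscaled library sizes, with a replicate block, in a fit of 2 groups only, in library numbers 1 to 6, with the Xist term, or without WT 1 or any single APP/PS1 library. Nfe2l2, the oxidative stress regulator NRF2, which acts on the ferritin genes and Hmox1, read 18.9 to 30.1 CPM in WT, against 32.2 to 45.1 CPM in APP/PS1, with 27.6 to 38.0 CPM in APP/PS1+N-AS. Its log2 fold change of 0.64 (SE 0.19, edgeR adjusted p = 0.111) in APP/PS1 against WT did not pass by edgeR and did by DESeq2. WT and APP/PS1 did not overlap, while the N-AS libraries overlapped both.

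By role, the tested genes of uptake and endosomal release (11) and of heme scavenging, transport and breakdown (9) had the widest log2 fold changes in APP/PS1 against WT, from -0.88 to 1.61 and from -0.56 to 1.21. Both upper ends came from genes of few reads (2 to 42 and 8 to 62 a library). The end at -0.88 came from a gene at 258 CPM in WT 1 and 48.0 and 72.7 CPM in WT 2 and 3. A range also widens with the number of genes, so these ranges do not rank the roles. Genes of cytosolic iron handling (3) stayed within -0.01 and 0.27, and those of mitochondrial iron (6) within -0.43 and 0.28. Of the 9 heme synthesis genes, 1 higher and 2 lower reached an unadjusted p under 0.05 in edgeR, beside 8.3% and 8.9% of all genes. With N-AS, edgeR called 0 of the 46 genes against APP/PS1 (4 at an unadjusted p under 0.05, beside 8.83% of all genes, and 2 with the replicate block, 0 by DESeq2 and 0 by limma voom) and 0 against WT (7 at an unadjusted p under 0.05, beside 6.73% of all genes, 0 by DESeq2 and 0 by limma voom). Steap1, a gene of the STEAP family, was counted with 2 to 42 reads. It had a mean of 1.75 ± 0.531 CPM in the 4 APP/PS1 libraries (SD) against 0.490 ± 0.323 CPM in the 3 with N-AS. Ppox, the heme synthesis enzyme after Cpox, stood at 10.5 ± 0.997 CPM (SD, n = 4) and 14.1 ± 1.21 CPM (SD, n = 3). Hfe, a partner of the transferrin receptors, read 94.4 CPM in APP/PS1+N-AS 1 and 7.23 to 13.1 CPM in the other 9 libraries, so its log2 fold change of 1.73 (SE 0.64, edgeR adjusted p = 0.517) with N-AS rests on 1 library.

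**Figure D4:**
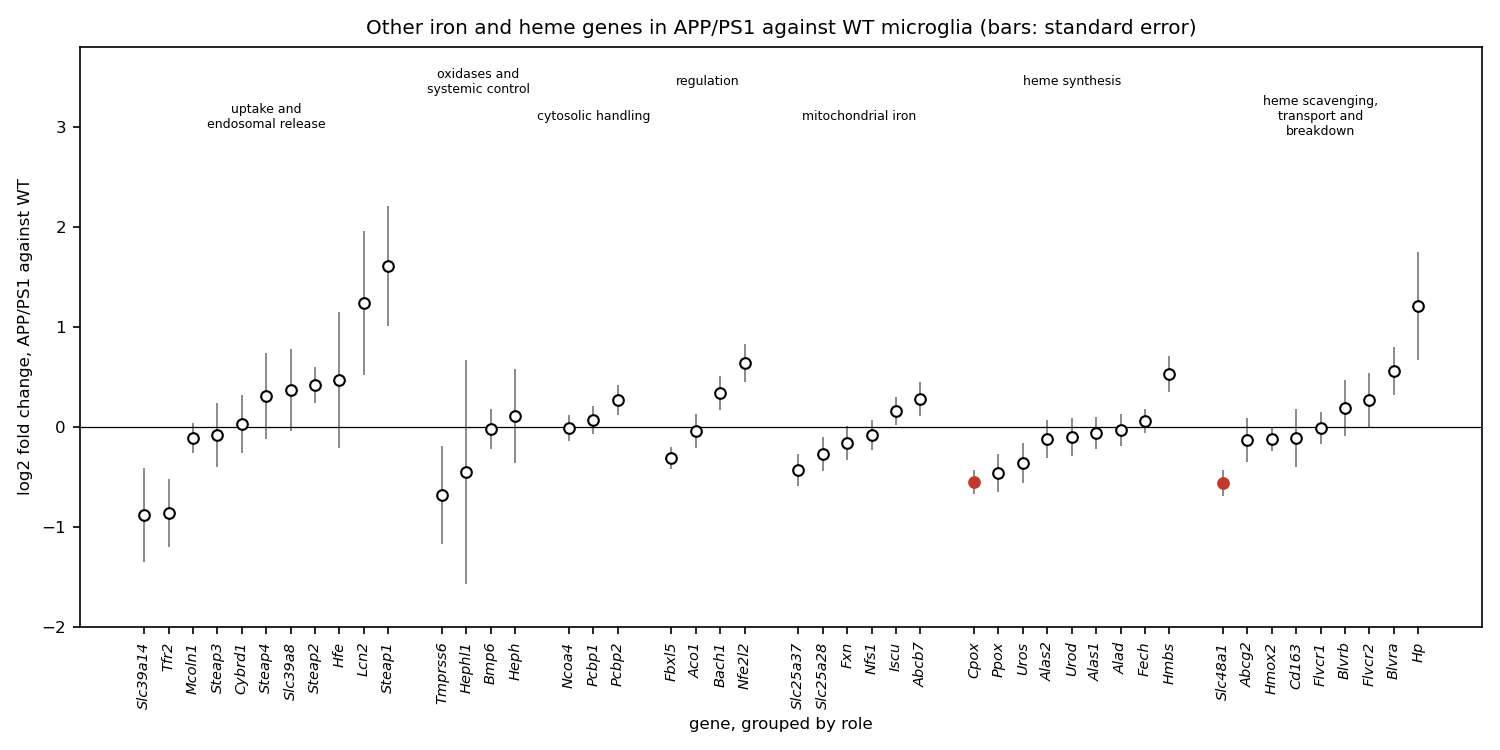
Log2 fold change of APP/PS1 against WT (y axis) for the 46 other iron and heme genes tested, grouped by role along the x axis, with bars for the standard error. Filled red points have an edgeR adjusted p under 0.05 and are Cpox (-0.55) and Slc48a1 (-0.56); the other 44 genes did not pass.

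Finally, the genes whose pattern over the 10 libraries was most like that of a member were found for the 3 members with the widest range. The measure was the root mean square difference of log2 CPM after each gene was centred on its own mean. For Slc11a1, with a range of 2.43 on that scale, the nearest were C3ar1 (0.20), Npc2 (0.22) and Plek (0.23). For Hmox1, with a range of 1.93, they were Fes (0.21), Apobec3 (0.23) and Tcirg1 (0.23). For Cp, with a range of 1.72, they were Igfbp7 (0.09), Tek (0.11) and Myof (0.13). C3ar1, a complement receptor, and Plek, a protein of blood and immune cells, are known from myeloid cells, and Tek is the angiopoietin receptor of vessel endothelium.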

How the data were processed

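RNA seq of cortical microglia was measured in 10 libraries of 3 groups, each a pool of 2 mice. Per the study's methods and labels, cells were released with papain and separated on an Optiprep gradient, ribosomal RNA was depleted, and stranded libraries were read as pairs. The authors aligned reads with TopHat (mm10 in the submitters' processing notes, which also name edgeR) and deposited raw read counts per gene symbol. The annotation, the versions and the use of strand in counting were not given in the sources used here. The FPKM values and quantile normalization of the study are not part of the counts.

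The 24481 rows held 24421 symbols, and the 103 rows that share 43 symbols were summed. Genes were filtered with filterByExpr, scaled by TMM and compared in R 4.3.3 by the quasi-likelihood F-test of edgeR 4.0.16, fitted once to the 3 groups with no covariate, with Benjamini-Hochberg adjustment over 18727 genes and a threshold of 0.05. The common dispersion of 0.0752, a biological coefficient of variation of 27.4%, sets the precision beside depth. Scripts were tested on simulated data. Alternatives were DESeq2 1.42.0, limma 3.58.1 (voom), other scalings and filters, a replicate block, a term for Xist, 2 groups only, and leaving out libraries. Values within ranges of library numbers used a pseudocount of 0.5 CPM. Sequences and coordinates came from GENCODE M21, and 3 older symbols in the files were matched to current ones.

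Deviations from the group means correlated between libraries of the same number in APP/PS1+N-AS and APP/PS1 (r = 0.298, 0.128 and 0.278). This comes from the data and not from the labels, and APP/PS1+N-AS 3 correlated best with APP/PS1 4. No other library shares the number of APP/PS1 4, so that library adds nothing to comparisons fitted with the block. With the block, edgeR gave 0 genes with an adjusted p under 0.05 in APP/PS1+N-AS against APP/PS1, as without it. The genes named are the members, other iron and heme genes with an adjusted p under 0.05 or among the 3 lowest p-values of a comparison, and the 3 nearest profiles. Members and lists were chosen with earlier results of these data known. The labels do not say that libraries come from separate litters or days, so p-values measure the spread between these pools.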

Additional observations from a re-analysis of the deposited data

Results flagged for a closer look

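Among the 16 genes named from the list, the 4 APP/PS1 libraries were searched for a single library whose gap to the nearest other, divided by the whole range, passed Dixon's 95% limit. Chance gives about 1 such library in 20 independent groups, and 4 of the 16 genes had one. These rates cannot be compared, because all 16 genes were read in the same 4 libraries and some were named for low p-values here. Slc11a1 was 38.2 CPM in APP/PS1 4 against 30.5 to 31.6 CPM in the other 3 libraries. Ireb2 was 70.0 CPM in APP/PS1 3 against 61.6 to 62.8 CPM. Steap1 was 0.949 CPM in APP/PS1 1 against 1.98 to 2.05 CPM. Ppox was 12 CPM in APP/PS1 1 against 9.90 to 10.1 CPM. The cause was not tested.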

How the results depend on the processing

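Slc11a1 in APP/PS1 against WT passed under 16 of 17 alternatives, and Ftl1 under 4 of the 7 that left out 1 library and 9 of 10 others. The exception among the others was the fit with a term for libraries of more than 1000 Xist reads (added after seeing the data). It gave 2 genes, 0 members and 0 other iron and heme genes in APP/PS1 against WT, with log2 fold changes of -0.07 for Fth1, 0.19 for Tfrc and -0.03 for Hmox1. It gave 0 genes in APP/PS1+N-AS against APP/PS1, with 0.01 for Trf and 0.28 for Hmox1, and 1 gene in APP/PS1+N-AS against WT, with -0.23 for Fth1. The count of all genes called in APP/PS1 against WT (649) became 1296 with DESeq2, 410 with 2 groups only, 1058 without WT 3 and APP/PS1+N-AS 3 (added after seeing the data), and 299 to 923 with 1 library left out. The count of members called there (2) became 3 with total counts only and 3 with 2 groups only (both adding Hmox1), 4 with DESeq2, 4 without WT 3 and APP/PS1+N-AS 3, and 1 to 3 with 1 library left out. For the other iron and heme genes (2) it became 3 with DESeq2 (adding Nfe2l2), 0 with total counts only, 1 with limma voom, 1 with no filter, 0 with 2 groups only, 0 in library numbers 1 to 6 (added after seeing the data), and 0 to 3 with 1 library left out.

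In APP/PS1+N-AS against APP/PS1 the count of all genes (0) became 73 with DESeq2, 1 without WT 3 and APP/PS1+N-AS 3, 11 in library numbers 1 to 6, and 0 to 1 with 1 library left out, and that of members (0) became 1 with DESeq2. In APP/PS1+N-AS against WT the count of all genes (35) became 180 with DESeq2, 20 with limma voom, 2 with 2 groups only, 163 without WT 3 and APP/PS1+N-AS 3, 437 in library numbers 1 to 6, and 1 to 116 with 1 library left out. Members (0) became 1 with DESeq2, 2 in library numbers 1 to 6 (Hmox1 and Tfrc), and 0 to 2 with 1 library left out, and the other iron and heme genes (0) became 1 in library numbers 1 to 6 (Lcn2).

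With a replicate block the counts were 326 genes, 2 members and 0 other iron and heme genes in APP/PS1 against WT, 0 genes in APP/PS1+N-AS against APP/PS1 and 5 genes in APP/PS1+N-AS against WT. Libraries of the same number correlated at -0.387, 0.426 and -0.0102 in the first comparison and -0.0687, 0.355 and 0.288 in the last, so there they share only a number, and not every library correlated best with its own number.

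Directions that turned were all of log2 fold changes that did not pass. In APP/PS1 against WT, Cp was -0.12 without WT 3 and APP/PS1+N-AS 3 and -0.25 in library numbers 1 to 6, with -0.12 to 0.55 when 1 library was left out. In APP/PS1+N-AS against APP/PS1, Trf was 0.01 and Hmox1 0.29 without WT 3 and APP/PS1+N-AS 3, Hmox1 was 0.35 in library numbers 1 to 6, and with 1 library left out Trf ran from -0.25 to 0.01 and Hmox1 from -0.31 to 0.29. In APP/PS1+N-AS against WT, Ireb2 was 0 with total counts only, -0.01 with limma voom and 0 with 2 groups only. Slc40a1 was -0.02 with limma voom, and without WT 3 and APP/PS1+N-AS 3 it was -0.12 and Cp -0.24. In library numbers 1 to 6 they were -0.18 and -0.30. With 1 library left out Ireb2 ran from -0.08 to 0.13, Slc40a1 from -0.11 to 0.27, Cp from -0.25 to 0.42, Slc11a2 from -0.30 to 0.04 and Fth1 from -0.04 to 0.42. The cause was not tested.

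Reads were few for Hmox1 (24 to 232 a library) and Steap1 (2 to 42). All WT and all APP/PS1 libraries differ in Xist, so the Xist term rests on APP/PS1+N-AS 3 against 2 libraries of its group, and APP/PS1+N-AS 3 also differs in choroid plexus markers.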
